A study of Mus musculus with 15 samples.

Results

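The mu-class glutathione S-transferase genes of the mouse lie side by side on chromosome 3, and 7 of them, Gstm1 to Gstm7, are described here out of 34554 genes and added sequences for which counts could be summed. They were named as the Gstm genes of that cluster. The cluster itself was chosen with earlier results of these data known, and the measured value behind the choice is not stated. It was taken to be the higher count of Gstm5 after 24 h of doxycycline in the inducible organoid lines. The values of the members in that contrast are therefore given below as a description without a p-value. Whether the negative lines also entered the choice is not known. All 7 genes passed the filter on low counts, Gstm3 and Gstm6 only with 12 to 34 and 6 to 25 counts per library.

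The libraries are RNA sequencing of total RNA from organoids of normal mouse pancreatic ducts, which are epithelial cultures grown in Matrigel. In 3 lines (A217, A220 and A225), labelled CA19-9 inducible, doxycycline switches on the carbohydrate antigen CA19-9, and 2 lines (A218 and A223), labelled genetic negative, lack one of the alleles that this needs. Each of the lines gave 3 libraries, for 0, 4 or 24 h with doxycycline (1 µg/ml), and thus 15 libraries in 6 groups. All cultures were harvested together, so that 0 h is the culture without doxycycline, and all had fresh medium 24 h earlier, with N-acetylcysteine, a cysteine donor, at 1.25 mM. The negative lines received doxycycline as the inducible ones did, and the 0 h culture of each line is its only one without doxycycline. The labels give neither the age nor the strain of the mice nor the number of animals behind a line, and each library is 1 line at 1 time. P-values of the main fit measure the spread between lines within groups and treat the times of a line as independent. Those given with the organoid line as a block measure the spread left after each line's own level is removed.

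Glutathione S-transferases join the tripeptide glutathione to reactive compounds, which makes these more soluble and ready for export by transporters of the Abcc family. The mu class is one of several cytosolic classes; its enzymes work as pairs of subunits and are well known from liver, where xenobiotics and activators of the transcription factor NRF2 raise several of them. Glutathione itself is made from cysteine, with glutamate-cysteine ligase (Gclc and Gclm) as the limiting step.

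In GRCm38 with the GENCODE M21 annotation the 7 genes span 149.1 kb of chromosome 3. Gstm5 lies at one end (107895821 to 107898686) and is the only member on the plus strand. The other 6 are on the minus strand, in the order Gstm7 (107926334 to 107931817), Gstm6 (107938847 to 107943749), Gstm3 (107963696 to 107969283), Gstm2 (107981702 to 107986453), Gstm1 (108012255 to 108017973) and Gstm4 (108040408 to 108044894). The sequences just upstream of 3 of these starts are shown because the values below set Gstm5 apart from Gstm1, the most abundant member, while Gstm7 moved less but in the same direction as Gstm5. They are from RefSeq on GRCm38.p6, written 5′ to 3′ on the strand of the gene and ending at the base before the GENCODE start. Capitals mark matches of the letters TGACNNNGC on either strand, the core of the antioxidant response element.
Gstm5 (chr3:107895604-107895820, plus strand): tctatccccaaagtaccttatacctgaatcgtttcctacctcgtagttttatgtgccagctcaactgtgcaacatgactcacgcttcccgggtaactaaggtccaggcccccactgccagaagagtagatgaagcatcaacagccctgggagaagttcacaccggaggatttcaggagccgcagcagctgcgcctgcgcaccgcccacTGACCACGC
Gstm1 (chr3:108017974-108018223, minus strand): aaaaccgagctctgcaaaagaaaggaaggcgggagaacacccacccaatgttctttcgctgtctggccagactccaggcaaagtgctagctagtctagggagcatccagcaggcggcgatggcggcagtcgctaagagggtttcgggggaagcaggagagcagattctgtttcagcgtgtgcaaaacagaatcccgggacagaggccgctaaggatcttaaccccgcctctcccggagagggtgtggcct
Gstm7 (chr3:107931818-107932067, minus strand): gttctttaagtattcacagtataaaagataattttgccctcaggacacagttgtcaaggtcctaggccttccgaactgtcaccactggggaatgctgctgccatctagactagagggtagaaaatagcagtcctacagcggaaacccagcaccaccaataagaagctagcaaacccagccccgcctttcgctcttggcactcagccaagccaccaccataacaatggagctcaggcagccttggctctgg
RefSeq lists 12 starts for the 7 genes, and the 250 bases before each were searched. The core was found before the RefSeq start of Gstm5 (107895854), with its first base at position -42. That start lies 33 bases inside the GENCODE gene, so the match forms the end of the sequence shown. The core was also before 1 of the 2 starts of Gstm7, at position -129, which is not the start shown. No match was found before the listed starts of Gstm1, Gstm2, Gstm3, Gstm4 and Gstm6. Among all 32851 promoter entries, 10.2% hold this core. The E-box CACGTG was before none of the 12 starts and in 6.02% of all entries. GCGTG, the core of the xenobiotic response element, is in the window of Gstm5 2 times and in that of Gstm1, and in 28.2% of all entries. ACGTG, the core of the hypoxia response element, was before 1 start of Gstm1 and in 16.6% of all entries.

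Library totals ranged from 47915632 to 59411540 estimated counts. EGFP, one of the sequences added to the transcriptome, stood at 0.505 ± 0.207 CPM (counts scaled to library size; SD, n = 3) without doxycycline in the inducible lines, 303 ± 40.6 after 4 h and 313 ± 63.1 after 24 h, and averaged 0.236 CPM or less in each negative group. rtTA3, the activator that responds to doxycycline, was present in all 15 libraries, at 75.6 CPM or more. Of 10 markers of duct cells, 9 were at or above 1 TPM in at least 1 library. The defining genes of other cell types were scarce, with summed levels of at most 1.41 TPM for 8 acinar, 0.267 TPM for 6 endocrine, 1.68 TPM for 6 fibroblast, 5.04 TPM for 4 endothelial and 2.93 TPM for 5 immune genes in any library. The summed level of the duct markers was higher at 24 h than at 0 or 4 h of doxycycline in both genotypes. In the inducible lines it was 10289 to 12839 TPM without doxycycline, 10286 to 11931 after 4 h and 13503 to 15540 after 24 h. In the negative lines it was 11407 to 11470, 9599 to 11038 and 15451 to 16082 TPM. Its part in the results below was not tested. In RNA from whole cultures, fewer cells of a kind and less RNA per cell cannot be told apart.

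Per unit of length, Gstm1 and Gstm2 were the most abundant members. Their levels were 182 to 342 TPM (median 247) and 181 to 246 TPM (median 203) over the 15 libraries, and these ranges overlapped. Gstm5 had the widest range, 30.1 to 249 TPM, and reached the levels of the leading pair only at 24 h. Gstm7 (7.50 to 13.6 TPM) and Gstm4 (7.13 to 10.5 TPM) followed and overlapped each other. Gstm3 (0.317 to 0.799 TPM) and Gstm6 (0.192 to 0.905 TPM) were near the floor of detection and overlapped as well. For scale, the alpha-class gene Gsta4 averaged 2352 TPM and the pi-class gene Gstp1 1198 TPM in the inducible lines at 0 h, so the mu class is not the largest share of glutathione transferase messages in these organoids.

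Gstm5 was higher at 4 h than at 0 h and higher again at 24 h in each of the 5 lines, with and without the full set of alleles. At 0 h it stood at 18.8 CPM in A217, 18.9 in A220 and 16.1 in A225, and at 16.7 in A218 and 18.7 in A223. At 4 h it was 30.3, 32.2 and 28.7 CPM in the inducible and 31.05 and 33.1 in the negative lines. At 24 h it was 96.3, 115 and 87.9 CPM in the inducible and 102 and 137 in the negative lines. The lowest library of each later time lay above the highest of the time before, whichever the genotype.

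**Figure D1:**
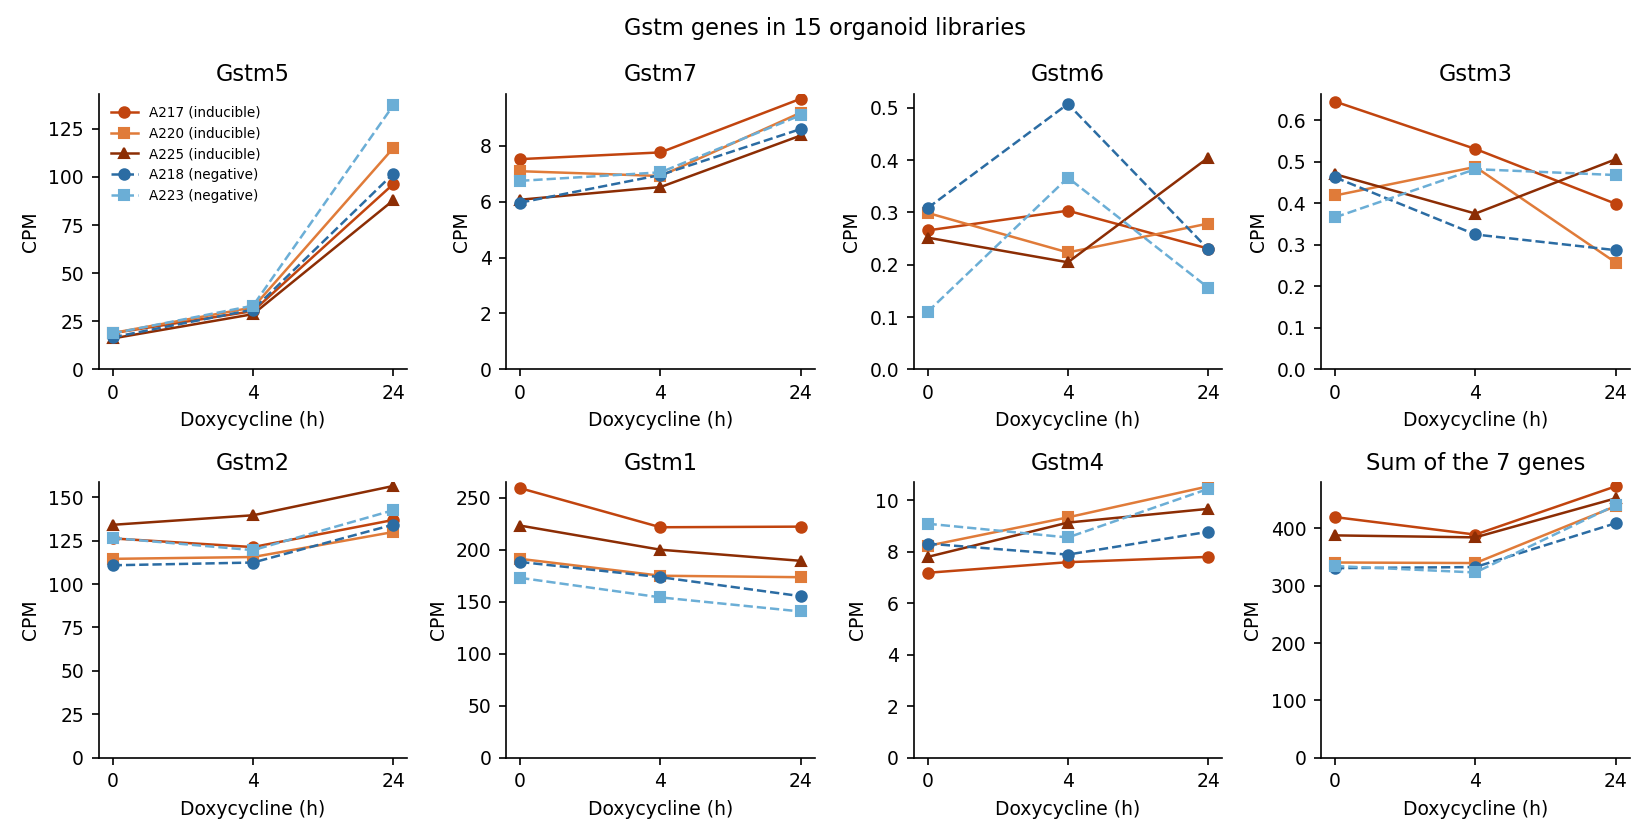
Each panel plots the scaled count (CPM, from 0) of 1 Gstm gene, or of the sum of the 7, against 0, 4 and 24 h of doxycycline, spaced evenly, with 1 line per organoid line (solid, inducible, n = 3; dashed, negative, n = 2). Gstm5 runs from 16.1 to 18.9 CPM at 0 h to 87.9 to 137 CPM at 24 h with no overlap between times, while Gstm1 is lower at 4 h and at 24 h than at 0 h in all 5 lines.

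In the inducible lines Gstm5 averaged 17.9 ± 1.60 CPM at 0 h (SD, n = 3), 30.4 ± 1.76 at 4 h and 99.8 ± 13.9 at 24 h, and in the negative lines 17.7 ± 1.42 (SD, n = 2), 32.1 ± 1.45 and 119 ± 25.2. The ratio of 24 h to 0 h within a line was 5.13 in A217, 6.10 in A220, 5.47 in A225, 6.11 in A218 and 7.36 in A223. The fitted log2 change at 24 h in the inducible lines, taken to be the value behind the choice of the cluster, was 2.48 ± 0.13 (SE). That from 4 h to 24 h, which shares those libraries, was 1.72 ± 0.12. The negative lines are not part of that contrast, but their results were also known when the cluster was chosen, so their p-values are not independent of the choice. There Gstm5 rose by a log2 change of 2.76 ± 0.15 at 24 h (adjusted p = 1.85e-06, edgeR quasi-likelihood test over 16462 features, higher in 2 of 2 lines) and of 1.90 ± 0.15 from 4 h to 24 h (adjusted p = 0.000218). In the negative lines its rise at 24 h ranked 67th of all 16462 tested features and 6th of the 12220 averaging at least 1 CPM. These ranks are a description and, like the p-values, are not independent of the choice.

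The early change of Gstm5 was smaller and its call less firm. In the inducible lines the log2 change at 4 h was 0.76 ± 0.12 (edgeR adjusted p = 0.0181), with ratios of 1.61 in A217, 1.71 in A220 and 1.79 in A225. The 0 h libraries of this comparison also enter the contrast taken to be behind the choice of the cluster. Leaving out A217 or A220 at either time, or A225 at 0 h, took the adjusted p to between 0.0540 and 0.0905; without A225 at 4 h it was 0.0499. In the negative lines the log2 change was 0.86 ± 0.15, with ratios of 1.86 in A218 and 1.77 in A223, and missed the threshold (edgeR adjusted p = 0.0518). With the organoid line as a block, which compares each line with itself, both early changes passed, with adjusted p = 3.56e-05 and 0.000116.

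Between genotypes, the log2 change of Gstm5 at 24 h was lower on average in the inducible than in the negative lines. The difference, inducible minus negative, was -0.28 ± 0.19 (95% interval -0.69 to 0.13), and with the line as a block -0.28 ± 0.11 (interval -0.50 to -0.05). Neither interval is adjusted for the number of features tested, and neither fit called this difference. One side of this difference is the change taken to be behind the choice of the cluster, so it is given as a description without a p-value. At 4 h the difference was -0.10 ± 0.19 (interval -0.51 to 0.31, edgeR adjusted p = 0.9999). Before doxycycline the genotypes differed by 0.02 ± 0.14 (interval -0.28 to 0.31, adjusted p = 1). These comparisons share their 0 h cultures.

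Gstm1 went the other way, by little. Its values at 0, 4 and 24 h were 259, 222 and 222 CPM in A217, in A220 191, 175 and 174, and in A225 223.2, 199.99 and 189. In the negative lines it read 188, 174 and 155 CPM in A218 and 173, 154 and 141 in A223. It was lower than at 0 h in 5 of 5 lines at both times, yet the lines differ so much in level that the groups overlapped, other than in the negative lines at 24 h. The log2 change was -0.18 ± 0.12 (edgeR adjusted p = 0.843) at 4 h in the inducible lines, and -0.14 ± 0.15 (adjusted p = 1) at 4 h and -0.29 ± 0.15 (adjusted p = 0.283) at 24 h in the negative lines. Within lines, in the fit with the line as a block, Gstm1 fell at 4 h in the inducible lines (adjusted p = 0.0177) and at 24 h in the negative lines (adjusted p = 0.000461), but not past the threshold at 4 h in the negative lines (adjusted p = 0.121). The 24 h value in the inducible lines was -0.20 ± 0.12. Between genotypes at 0 h Gstm1 differed by 0.31 ± 0.13 (edgeR adjusted p = 1), the inducible lines being higher on average with 224.5 ± 34.0 CPM (SD, n = 3) against 181 ± 10.8 (SD, n = 2).

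Gstm2 and Gstm7 were higher at 24 h in every line. Gstm2 read 126, 114 and 134 CPM at 0 h and 137, 130.0 and 156 at 24 h in A217, A220 and A225, and 111 and 127 CPM at 0 h and 134 and 142 at 24 h in A218 and A223. Its 0 h and 24 h libraries overlapped in the inducible lines and were apart in the negative lines. The log2 change at 24 h was 0.18 ± 0.09 in the inducible lines and 0.22 ± 0.11 in the negative lines (edgeR adjusted p = 0.263, and 0.00348 with the line as a block). Gstm7 read 7.53, 7.10 and 6.07 CPM at 0 h and 9.69, 9.19 and 8.38 at 24 h in the inducible lines, and 5.97 and 6.75 CPM at 0 h and 8.61 and 9.10 at 24 h in the negative lines. The 0 h and 24 h libraries did not overlap in either genotype. With 2 or 3 libraries a group, such separation can occur without a change, and its share over all features is not given. Nothing is read from it for Gstm2 or Gstm7. The log2 change of Gstm7 at 24 h was 0.40 ± 0.11 in the inducible and 0.48 ± 0.13 in the negative lines (edgeR adjusted p = 0.0638, and 0.00250 with the line as a block).

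At 4 h neither gene had moved far. Gstm2 was higher in 2 of 3 inducible and 1 of 2 negative lines, with log2 changes of 0.01 ± 0.09 and -0.03 ± 0.11 (edgeR adjusted p = 0.998 and 1). For Gstm7 they were 0.04 ± 0.11 and 0.14 ± 0.13 (adjusted p = 0.996 and 1).

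For Gstm4 the libraries of 0 h and 24 h overlapped in both genotypes. Its counts were 7.19, 8.23 and 7.80 CPM at 0 h, 7.60, 9.34 and 9.14 at 4 h and 7.80, 10.5 and 9.67 at 24 h in A217, A220 and A225. In A218 and A223 they were 8.32 and 9.09 CPM at 0 h, 7.89 and 8.56 at 4 h and 8.78 and 10.4 at 24 h. The log2 change at 24 h was 0.27 ± 0.13 in the inducible and 0.14 ± 0.15 in the negative lines (edgeR adjusted p = 0.653, and 0.306 with the line as a block). Gstm3 stayed between 0.257 and 0.645 CPM and Gstm6 between 0.110 and 0.507 CPM in all libraries, and neither passed the threshold in any comparison. The log2 change of Gstm3 at 24 h in the negative lines was -0.13 with a 95% interval of -1.04 to 0.77.

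**Figure D2:**
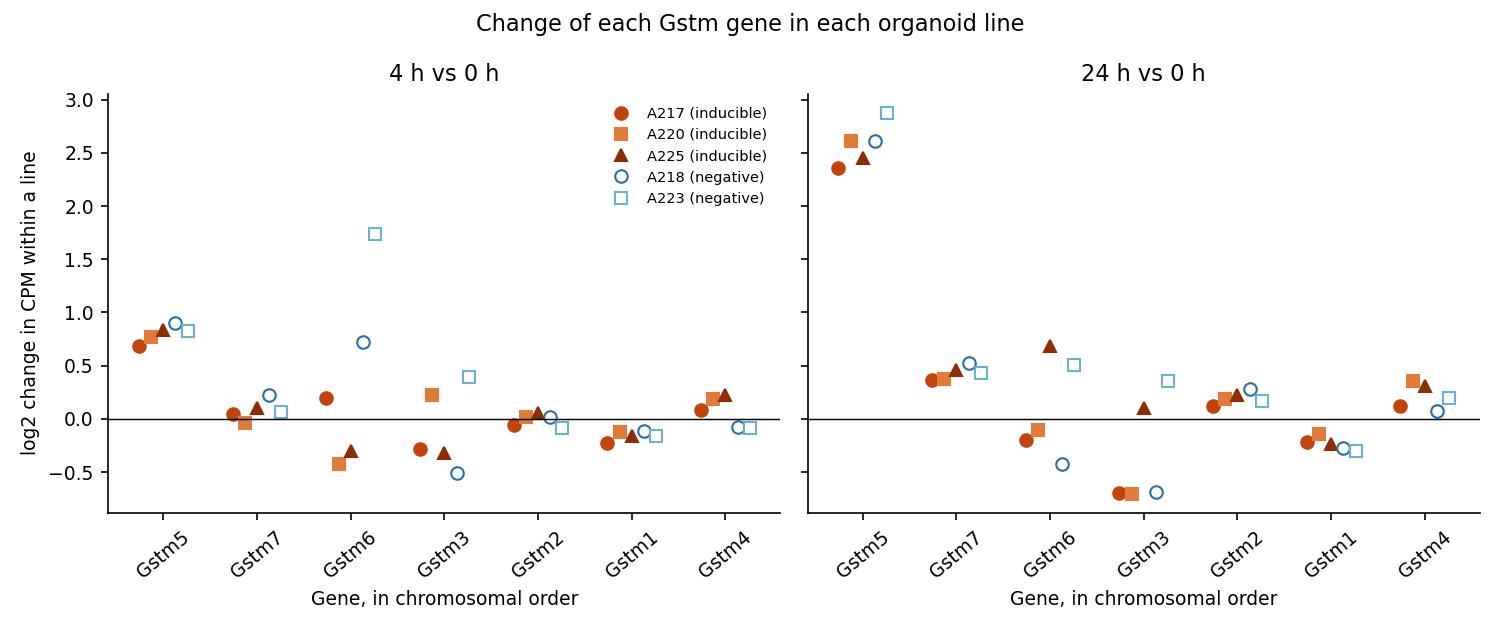
Points show the log2 change in CPM within each organoid line, 4 h against 0 h on the left and 24 h against 0 h on the right, for the 7 Gstm genes in chromosomal order (filled, inducible, n = 3 lines; open, negative, n = 2 lines). Gstm5 stands at 2.36 to 2.88 at 24 h in all 5 lines, and the scattered points of Gstm6 and Gstm3 rest on 6 to 34 counts per library.

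Counted over the 7 genes, few passed the threshold in the fit without a block. At 4 h 1 of 7 (Gstm5, higher) was called in the inducible lines, where 0.298% of all tested features were called, and 0 of 7 in the negative lines, where 0.121% were. In the negative lines 1 of the 7, Gstm5, had an unadjusted p under 0.05 in edgeR, and DESeq2 called 1. At 24 h against 0 h 1 of 7 was called, again Gstm5, in the inducible lines (4.93% of features) and in the negative lines (3.8%). From 4 h to 24 h it was again Gstm5 alone, against 4.43% and 4.56% of features. Nothing is read from the counts of the inducible lines at 24 h, the contrast behind the choice. The differences between genotypes called 0 of 7 at 4 h and at 24 h, against 0.0121% of features each. Without a block 0 members had an unadjusted p under 0.05 in edgeR, and DESeq2 called 0. With the line as a block edgeR again called 0 of 7 at both times, and 1 member at 24 h, Gstm5, had an unadjusted p under 0.05; nothing is read from the 24 h counts, which hold the contrast behind the choice. Between genotypes at 0 h edgeR called 0 of 7 members and 0% of all features. There 1 member, Gstm1, and 589 features had an unadjusted p under 0.05, and DESeq2 called 0 members and 6 features.

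Comparing each line with itself raised the calls of all genes as well as of the cluster. With the line as a block, 2 of 7 were called at 4 h in the inducible lines (Gstm5 higher, Gstm1 lower; 3.05% of features) and 1 of 7 in the negative lines (Gstm5; 2.04%). In the inducible lines at 24 h, the contrast behind the choice, 5 of 7 were called, Gstm4 among them, and 24.2% of features; nothing is read from that count. In the negative lines at 24 h it was 4 of 7, Gstm1 lower and Gstm2, Gstm5 and Gstm7 higher, against 22.5%. From 4 h to 24 h 3 of 7 were called in the inducible lines, whose 24 h libraries are those of the choice, and 4 of 7 in the negative lines, against 21.9% and 23.9%. Without a block the median log2 change over the 7 genes at 24 h was 0.18 in the inducible and 0.14 in the negative lines. The medians of all tested features were 8.9e-05 and 0.0059. Nothing is read from the inducible median, which comes from the contrast behind the choice, and the negative results were also known then.

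The unequal changes altered the make-up of the mu-class messages. In the inducible lines Gstm5 held 6.08 ± 0.96% of the summed Gstm TPM at 0 h (SD, n = 3), 10.4 ± 1.33% at 4 h and 26.9 ± 4.36% at 24 h, and in the negative lines 6.75 ± 0.49% (SD, n = 2), 12.5 ± 0.83% and 33.3 ± 4.89%. The share of Gstm1 went from 54.0 ± 3.16% to 37.1 ± 3.74% over 24 h in the inducible and from 50.03 ± 4.18% to 29.8 ± 4.02% in the negative lines. The share of Gstm2 was lower at 24 h than at 0 h in 5 of 5 lines and lay between 30.7% and 42.1% in all libraries. In A223 at 24 h Gstm5 was the leading member with 36.7% of the sum, and in A220 its 31.9% stood beside 33.6% for Gstm1. The summed level was 383 ± 39.8, 371 ± 27.4 and 455 ± 17.5 CPM at 0, 4 and 24 h in the inducible lines and 333 ± 2.63, 328 ± 6.69 and 425 ± 22.2 in the negative lines.

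**Figure D3:**
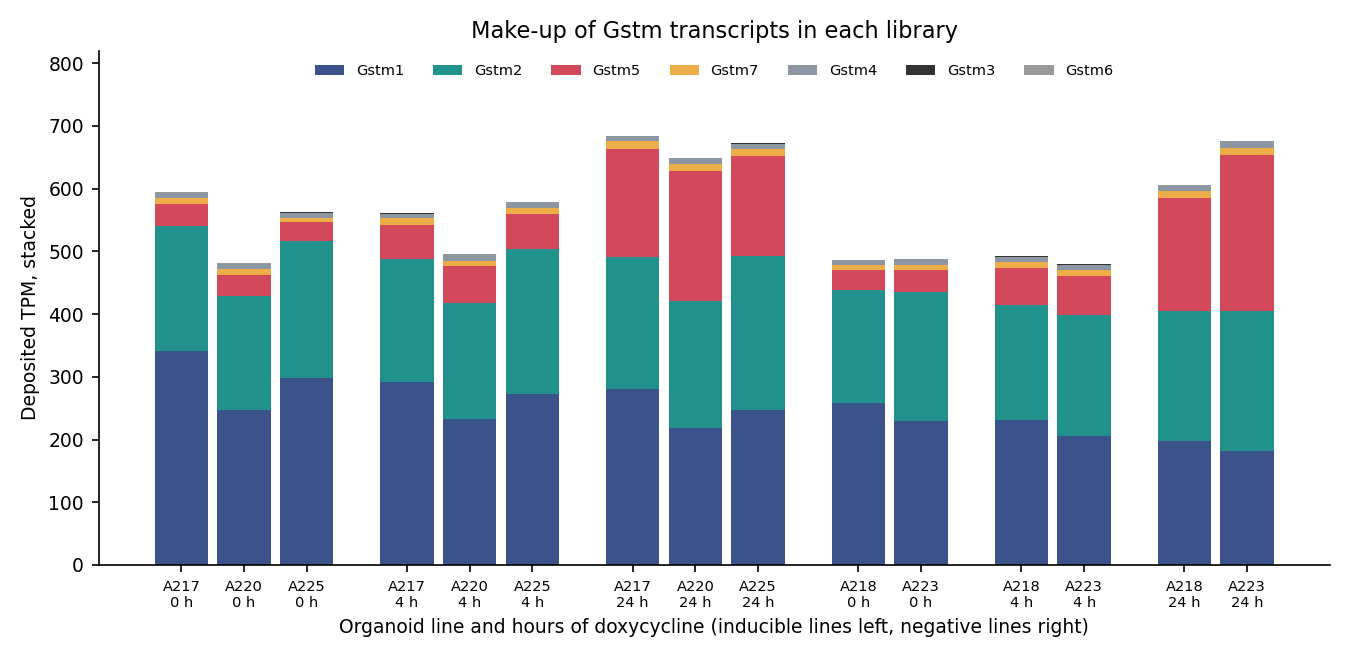
Each bar stacks the deposited TPM of the 7 Gstm genes in 1 library, grouped by genotype and hours of doxycycline (3 inducible lines on the left, 2 negative lines on the right). The red segment, Gstm5, goes from 30.1 to 34.6 TPM at 0 h to 160 to 249 TPM at 24 h, while the blue segment, Gstm1, is shorter at 24 h than at 0 h in each line.

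The members are close relatives, and reads that they share had to be divided between them. Words of 31 bases, the length kallisto matches by default, were therefore compared across all listed transcripts. None of the words of the 6 Gstm5 transcripts occurred in another gene among the transcripts that were counted. The main transcripts of Gstm7, Gstm4 and Gstm6 had 97.8%, 96.6% and 90.7% of their words to themselves and that of Gstm2 80.5%. Gstm1-201 had 65.7%, with 26.9% of its words also in the pseudogene Gstm2-ps1 and 15.5% in Gstm3, and Gstm3-201 had 62.3%. The levels of Gstm1 and Gstm3 are thus less certain than that of Gstm5. An antisense gene, 4933431E20Rik (107888850 to 107896213), overlaps Gstm5 from the start of that gene at 107895821. The antisense gene had no summed counts here, so it was not analysed and its words were not compared. Since the sources do not say whether the counting used strand, its reads over that stretch cannot be told apart from those of Gstm5.

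Within genes 1 transcript usually carried the counts. Gstm5-201, of 945 bases, held 93.1 to 100% of the counts of Gstm5 (median 98.4%). It had 985, 934 and 946 estimated counts at 0 h and 4446, 5261 and 4224 at 24 h in A217, A220 and A225, and 865 and 1020 at 0 h and 5263 and 6843 at 24 h in A218 and A223. Gstm1-201 held 95.4 to 98.8%, Gstm2-201 98.5 to 99.4% and Gstm7-201 87.8 to 100% of their genes. Gstm4 was less uniform: Gstm4-201 held 61.2 to 96.7%, with Gstm4-203 taking up to 34.5% of the counts. The counts of Gstm6 were spread over 6 transcripts.

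Around the cluster, 30 other genes lie inside it or within 200 kb, and 11 of them were tested. Csf1, which encodes the growth factor of macrophages and lies 135 kb from the cluster, was called higher without a block. It averaged 4.07 ± 0.52, 10.2 ± 1.19 and 12.6 ± 2.62 CPM at 0, 4 and 24 h in the inducible lines (SD, n = 3) and 4.08 ± 0.06, 9.18 ± 1.40 and 14.6 ± 2.37 in the negative lines (SD, n = 2). Its log2 change was 1.32 ± 0.17 at 4 h (edgeR adjusted p = 0.00313) and 1.63 ± 0.17 at 24 h (adjusted p = 0.000261) in the inducible lines, and 1.17 ± 0.21 (adjusted p = 0.0518, 0.000367 with the line as a block) and 1.84 ± 0.21 (adjusted p = 0.000808) in the negative lines. Eps8l3, an Eps8-like adaptor gene and the nearest tested neighbour of Gstm5 at 2.92 kb, was called only with the line as a block, with log2 changes at 24 h of 0.32 ± 0.05 (adjusted p = 0.000309) and 0.37 ± 0.06 (adjusted p = 0.000528). In that fit Cyb561d1 also rose at 24 h in both genotypes, Ahcyl1 in the inducible and Gnai3 in the negative lines, while Ampd2 fell at 4 h in both. The block fit thus called 4 of the 11 higher at 24 h in each genotype, where 24.2% and 22.5% of all features were called. At 4 h it called 1 higher and 1 lower in each, against 3.05% and 2.04%. Without a block 1 of the 11, Csf1, was called at 24 h in each genotype (4.93% and 3.8% of features). At 4 h Csf1 was called in the inducible lines only (0.298% and 0.121%).

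**Figure D4:**
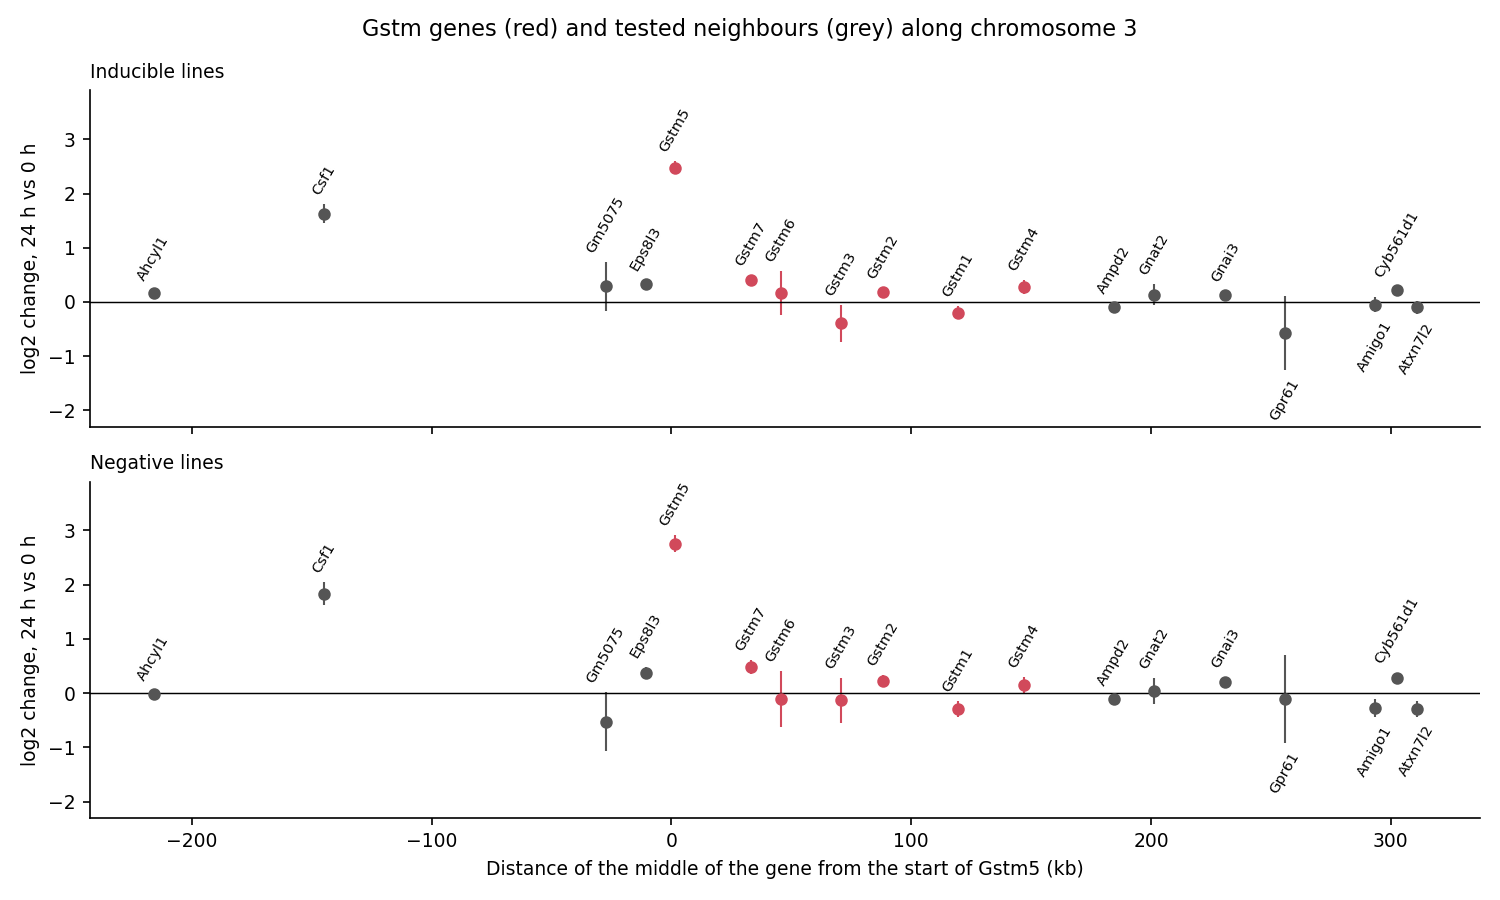
Points show the fitted log2 change (24 h against 0 h, bars 1 SE) of the 7 Gstm genes (red) and of the 11 tested neighbours (grey) against the distance of the middle of each gene from the start of Gstm5 in kb, for the inducible lines above and the negative lines below. Gstm5 at 2.48 and 2.76 and Csf1 at 1.63 and 1.84 stand above the genes between and beside them.

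Among the other classes of glutathione transferase, 2 theta-class genes rose at 24 h. Of 19 genes tested, edgeR called 0 at 4 h in either genotype, with or without the block, with 1 in each genotype at an unadjusted p under 0.05 without it, and DESeq2 called 0. At 24 h 2 rose in the inducible lines, and 2 rose and 1 fell in the negative lines (4.93% and 3.8% of all features called). The rising genes were the theta-class genes Gstt1, with log2 changes of 0.50 ± 0.11 (edgeR adjusted p = 0.0262) and 0.72 ± 0.14 (adjusted p = 0.0147), and Gstt3, with 0.35 ± 0.06 (adjusted p = 0.00768) and 0.34 ± 0.07 (adjusted p = 0.0264). Gstcd fell in the negative lines by 0.31 ± 0.07 on the log2 scale (adjusted p = 0.0337). With the line as a block 2 rose and 3 fell in the inducible lines, and 2 rose and 4 fell in the negative lines, where 24.2% and 22.5% of all features were called. The median over the 19 was -0.07 and -0.04, against 8.9e-05 and 0.0059 over all features.

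Gclc and Slc7a11, which serve the supply of glutathione, fell at 4 h in both genotypes. Of 31 genes of glutathione synthesis and redox balance, 3 fell and 0 rose at 4 h in the inducible lines, and 2 fell and 0 rose in the negative lines (6 and 5 fell with the line as a block). Of all features 0.298% and 0.121% were called without a block, and 3.05% and 2.04% with it. Gclc, the catalytic subunit of glutamate-cysteine ligase, went from 704 ± 57.4 to 372 ± 25.7 CPM in the inducible (SD, n = 3; log2 change -0.92 ± 0.10, edgeR adjusted p = 0.000972) and from 676 ± 39.1 to 323 ± 28.1 in the negative lines (SD, n = 2; -1.07 ± 0.12, adjusted p = 0.00380). It was back at 813 ± 103 and 695 ± 70.9 CPM at 24 h. Slc7a11, the cystine importer, changed by -0.57 ± 0.09 (adjusted p = 0.0184) and -0.68 ± 0.11 (adjusted p = 0.0401), and Srxn1, sulfiredoxin, by -0.54 ± 0.08 (adjusted p = 0.0141) in the inducible and -0.56 ± 0.10 (adjusted p = 0.0544, 0.000308 with the line as a block) in the negative lines. At 24 h 3 rose in the inducible lines, the peroxidase genes Prdx1 (0.49 ± 0.07), Prdx5 (0.33 ± 0.08) and Gpx4 (0.31 ± 0.06), and 4 rose in the negative lines, these 3 and Gpx1 (0.34 ± 0.07), with edgeR adjusted p from 0.00239 to 0.0403. Of all features 4.93% and 3.8% were called at 24 h. With the line as a block 6 rose and 4 fell, and 4 rose and 4 fell, where 24.2% and 22.5% of all features were called. From 4 h to 24 h without a block 6 rose in the inducible and 7 in the negative lines (4.43% and 4.56% of features called). The median over the list at 4 h was -0.04 and -0.03, against -0.0013 and 0.0091 over all features.

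Targets of NRF2 that were called at 4 h all fell. Of 31 genes, some of them also in the list above, 4 fell in the inducible lines without a block (Gclc, Slc7a11, Srxn1 and Osgin1). In the negative lines 2 fell (Gclc and Slc7a11), and 0 rose in either genotype. Of all features 0.298% and 0.121% were called. In the fit with the line as a block 10 and 9 fell, where 3.05% and 2.04% of features were called. At 24 h without a block 1 rose (G6pdx, log2 change 0.20 ± 0.05, edgeR adjusted p = 0.0382) and 1 fell in the inducible lines. In the negative lines 1 fell (4.93% and 3.8% of features called). The falling gene was Nfe2l2, which encodes NRF2 itself, with -0.22 ± 0.05 (adjusted p = 0.0292) and -0.28 ± 0.06 (adjusted p = 0.0291). With the line as a block 10 rose and 3 fell in the inducible lines and 7 rose and 4 fell in the negative lines, against 24.2% and 22.5% of features called; Hmox1, heme oxygenase, was among those that rose, with 0.59 ± 0.09 and 0.75 ± 0.10 (adjusted p = 0.000335 and 0.000270). From 4 h to 24 h 8 rose in the inducible and 7 in the negative lines (4.43% and 4.56% of features called). With the block 21 rose in the inducible lines, and 22 rose and 1 fell in the negative lines (21.9% and 23.9%). The list's median log2 change was -0.13 and -0.18 at 4 h, 0.03 and 0.06 at 24 h, and 0.19 and 0.22 from 4 h to 24 h.

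Among 11 tested genes for export and breakdown of glutathione conjugates, the transporter gene Abcc4 rose at 24 h in both genotypes (log2 change 0.62 ± 0.10, edgeR adjusted p = 0.00493, and 0.53 ± 0.12, adjusted p = 0.0317), and the transpeptidase gene Ggt6 fell in the negative lines (-0.46 ± 0.12, adjusted p = 0.0492). Of all features 4.93% and 3.8% were called at 24 h without a block, and 24.2% and 22.5% with it. The block gave 2 higher of the 11 in the inducible lines, and 3 higher and 1 lower in the negative lines. At 4 h edgeR, with or without the block, and DESeq2 called 0 of the 11, with 0 in the inducible and 1 in the negative lines at an unadjusted p under 0.05 without the block. Of 14 tested genes of the CAR and PXR receptors, edgeR without a block called 1, Abcb1a, lower in the negative lines at 24 h (-0.61 ± 0.15, adjusted p = 0.0376). Its block fit gave 2 higher and 1 lower in the inducible lines at 24 h, and 3 higher and 2 lower in the negative lines. DESeq2 called 1 higher in the inducible and 1 lower in the negative lines at 24 h. The receptor genes Nr1i3 and Nr1i2 averaged 0.138 and 0.195 TPM in the inducible lines at 0 h. Of 8 tested genes of the aryl hydrocarbon receptor, 1 was called, the receptor gene Ahr at 24 h in the inducible lines (0.28 ± 0.07, adjusted p = 0.0306). For these 8 the block fit gave 1 higher and 2 lower at 24 h in the inducible lines, and 1 higher and 1 lower in the negative lines. Among the block calls, Ugt1a1, of the CAR and PXR list only, rose at 24 h in both genotypes (0.93 and 0.88). Ugt1a6a, which is in both lists, fell (-0.18 and -0.27).

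The genes whose log2 CPM ran most like that of Gstm5 over the 15 libraries were Vstm2b (Pearson r = 0.990), Rnf24 (0.967), Stap2 (0.965), Nt5c2 (0.964) and Adgrg1 (0.962). All 5 are on other chromosomes. Adgrg1, an adhesion G protein-coupled receptor gene, went from 37.5 to 65.9 and 107.6 CPM on average in the inducible lines, and Nt5c2, a cytosolic nucleotidase gene, from 107.6 to 138 and 187. Those most like Gstm1 were Spry2 (r = 0.924), Txnip (0.922), Slc16a10 (0.917), Akr1b7 (0.911) and Ugt1a6a (0.907). The libraries share lines and times, so these values describe likeness only. Within the cluster, by the same measure, Gstm5 had r = 0.898 with Gstm7, 0.601 with Gstm2, 0.597 with Gstm4 and -0.454 with Gstm1. After removal of each line's mean the values were 0.975, 0.904, 0.824 and -0.873.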

How the data were processed

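The deposited files hold kallisto estimated counts, effective lengths and TPM per transcript, made by the authors with kallisto 0.43.1 and GRCm38, per the submitters' processing notes, which also name DESeq2 1.18.1 and DESeq. Use of strand in the counting is not stated in the labels or notes. Ribosomal RNA was depleted before TruSeq library preparation, and RNA integrity numbers were 9.8 to 10, per the labels' protocols.

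Estimated counts were summed per gene with GENCODE M21, matched on transcript identifiers without version (1295 identifiers without a match were left out), and rounded. CPM use TMM scaling; TPM are as deposited, summed per gene. edgeR 4.0.16 (R 4.3.3) fitted a mean for each of the 6 groups to all 15 libraries after its default expression filter, with quasi-likelihood F tests and Benjamini-Hochberg adjustment over 16462 features and a threshold of 0.05. SE is the log2 change divided by the root of F, and 95% intervals use the t quantile at the test's degrees of freedom. An alternative fit adds the organoid line as a block. The same line was sampled at each time, so lines pair the libraries, and deviations from group means correlated between libraries of a line by 0.423 to 0.677. Libraries of a group differed beyond sampling noise (chi-square over its degrees of freedom at least 15.3). On simulated counts the test recovered 50 of 50 genes changed 2-fold and 19 of 50 changed 1.5-fold for the inducible lines at 24 h against 0 h, among 15938 genes. The simulated libraries were independent, with the same spread for all genes and no line effect. Changed genes averaged more than 50 counts, so this recovery does not cover Gstm3 and Gstm6.

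The cluster, its members and all gene lists were chosen with earlier results of these data known. Named were all 7 members, up to 3 genes a direction with the largest change among those called in each other list, the 5 genes most like Gstm1 and Gstm5, and called neighbours within 200 kb; Nr1i2, Nr1i3, Gsta4, Gstp1, Hmox1, Ugt1a1 and Ugt1a6a were added after their values were seen. The alternatives tried were median-of-ratios scaling, DESeq2 1.42.0, no filter, at least 1 CPM in 3 libraries, an effective length offset, only the groups compared, deposited TPM, and leaving out each library.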

Additional observations from a re-analysis of the deposited data

Results flagged for a closer look

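At 4 h Gstm4 was higher than at 0 h in 3 of 3 inducible lines and lower in 2 of 2 negative lines, which is why it is listed here. The difference of the responses was 0.25 ± 0.20 on the log2 scale (edgeR adjusted p = 0.9999 without and 0.991 with the organoid line as a block). The changes within lines ran from -0.09 to 0.23, on 372 to 536 counts per library. The opposite directions hold for CPM but not for TPM: from deposited TPM the ratio of 4 h to 0 h was 1.06 in A218 and 1.003 in A223, and 1.002 to 1.30 in the inducible lines. The difference was not tested on TPM.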

How the results depend on the processing

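For the 9 counts of Gstm genes called, the alternatives changed 6 and left those of the genotype differences at 0. A replicate block for the organoid line took them from 1 to 2 (inducible, 4 h), 1 to 5 (inducible, 24 h), 1 to 3 (inducible, 24 h against 4 h), 0 to 1 (negative, 4 h), 1 to 4 (negative, 24 h) and 1 to 4 (negative, 24 h against 4 h). DESeq2 called 2, 2, 1 and 2 in the inducible lines at 24 h, at 24 h against 4 h, and in the negative lines at 4 h and 24 h. A filter of at least 1 CPM in 3 libraries called 2 in the inducible lines at 24 h and 1 in the negative lines at 4 h, where no filter also called 1. Fitting only the groups compared called 2 in the negative lines at 24 h. Leaving out 1 library gave 0 to 1 in the inducible lines at 4 h and changed no other count. The log2 changes of named members larger than their SE kept their direction in every alternative. Gstm5 at 24 h in the negative lines ranged from 2.52 to 2.95. From deposited TPM the fold of Gstm5 means at 24 h was 5.46 in the inducible and 6.53 in the negative lines, against 5.57 and 6.77 from CPM.

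Counts over all features moved more: for the inducible lines at 4 h, 24 h and 24 h against 4 h they were 49, 812 and 730, with DESeq2 150, 1788 and 1479, from only the groups compared 20, 65 and 11, and without 1 library 20 to 35, 220 to 2002 and 107 to 1514. In the negative lines they were 20, 625 and 750, with DESeq2 97, 1460 and 1626, from only the groups compared 17, 1734 and 913, and without 1 library 2 to 9, 54 to 129 and 6 to 300. With the block they were 502, 3987, 3607, 336, 3696 and 3931, and an effective length offset gave 517, 341, 392 and 413 for the 4 comparisons with 24 h. Precision was lowest for Gstm3 and Gstm6, with under 35 counts per library: at 24 h in the negative lines their SE was 0.42 and 0.52, against 0.11 for Gstm2.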
